A study of Mus musculus with 15 samples.

Results

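Liver expression of 10 genes of glutathione metabolism and antioxidant defence, Gpx1, Gpx4, Gclc, Gclm, Gsr, Nqo1, Hmox1, Txnrd1, Cat and Sod1, was followed across 5 groups of mice. The genes were chosen by name, with earlier results of these data known. Each is represented by the probe set on the array that carries its symbol. Each of the 10 symbols belongs to exactly 1 of the 22206 tested probe sets, of which 19572 carry exactly 1 symbol, and all 10 genes were brighter on average than the dimmest 30% of probe sets.

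RNA from whole liver was hybridized to 15 Clariom S mouse arrays, on which several short oligonucleotide probes report on each gene, with 3 arrays in each of 5 groups. All mice were C57BL/6, carried a human gut microbiota acquired by breeding from germ-free mice colonized with the stool of 1 donor, and ate a standard diet. They drank water (control), 10% fructose, 10% fructose + sodium benzoate (4.8 mg per kg body weight per day), 10% fructose + sodium nitrite (0.36 mg per kg per day) or 10% fructose + potassium sorbate (19 mg per kg per day). Drinking began at 3 weeks of age and lasted 11 weeks, so the mice were 14 weeks old when killed, although their labels say 11 weeks, and each group of the study held 8 mice. Every preservative was given with fructose, so no group shows a preservative alone.

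Glutathione is a tripeptide whose thiol group takes up oxidizing equivalents, and the liver makes and exports it in large amounts. Glutamate-cysteine ligase, a dimer of a catalytic subunit (Gclc) and a modifier subunit (Gclm), carries out the first and rate-limiting step of its synthesis. Glutathione peroxidases spend it on peroxides, and glutathione reductase (Gsr) regenerates it with NADPH. Thioredoxin reductase 1 (Txnrd1) serves the parallel thioredoxin system, superoxide dismutase 1 (Sod1) turns superoxide into hydrogen peroxide, and catalase (Cat) breaks hydrogen peroxide down. Gclc, Gclm, Gsr, Txnrd1, the quinone reductase Nqo1 and the heme-degrading enzyme Hmox1 are known targets of NRF2, the transcription factor of the oxidant response, which binds antioxidant response elements. Gpx1, Gpx4 and Txnrd1 encode selenoproteins, whose translation needs selenocysteine.

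Values are log2 signals as the authors normalized them, so a difference of 1 is a 2-fold change. The p-values of limma were adjusted by Benjamini-Hochberg over all 22206 probe sets, and a gene was said to have risen or fallen where the false discovery rate (FDR, the adjusted p) was under 0.05. Each array was taken as a separate mouse, which the labels do not state in words, and p-values measure only the spread between these arrays.

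Several measures that are not antioxidant genes also separated the water arrays from the others, so they stand beside every comparison with water. The 4 hybridization controls, bacterial and phage transcripts added before hybridization, averaged 12.64 to 13.21 on the water arrays and 11.68 to 12.40 on the 12 fructose arrays. The median of the negative control probes was 5.58 to 5.63 on water and 6.03 to 6.58 on the 12 others. Of 36 cytosolic ribosomal protein genes, which are short transcripts, 31 to 33 fell and 0 rose in each of the 4 groups against water (limma, FDR under 0.05). Of 22 very long, broadly expressed transcripts, 20 to 22 rose and 0 fell. The part of the ribosomal protein genes and very long transcripts in the results on the 10 genes was not tested, and a fit with the hybridization controls as a covariate is given with the comparisons. Hepatocyte markers such as albumin were high on every array, with a mean signal over 12 genes of at least 18.52. With fructose, benzoate, nitrite and sorbate against water, 11.8%, 15.6%, 16% and 16.7% of all probe sets rose and 12.7%, 18.7%, 18.8% and 19.8% fell. Sinusoidal endothelial cell markers moved with the groups. Of these 11 genes 6, 7, 8 and 8 rose and 1 fell in the same order, with medians of 1.02, 1.82, 1.60 and 2.19. Their mean signal was 8.16 to 8.96 on the water arrays and 9.12 to 10.32 on the 12 others, all 11 exceeded the median of the negative controls on every fructose array, and 10 did so on every water array (not Stab1). Their part in the results was not tested. The mean of 3 Y-linked genes was 9.37 to 10.00 on 10 arrays and 3.39 to 4.17 on the other 5, which are the 3 sorbate arrays and benzoate arrays 2 and 3. Sex is not given in the labels, and the methods give only an even split of the sexes within a group. Over 9 liver genes higher in male mice, the mean was 15.09 to 16.11 on water and 11.08 to 11.78 with sorbate. On fructose it was 16.22 to 16.79, with nitrite 16.46 to 16.56 and with benzoate 10.95 to 16.56. Over 9 higher in female mice, it was 6.23 to 7.64 on water and 13.27 to 14.20 with sorbate. On fructose it was 6.92 to 7.32, with nitrite 7.03 to 7.14 and with benzoate 6.92 to 13.65. The water, fructose and nitrite arrays all had a high Y-linked mean. Sorbate and the difference in Y-linked and sex-biased genes therefore cannot be told apart in comparisons with those groups. In RNA from whole liver, fewer cells of a type and less RNA per cell cannot be told apart.

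**Figure D1:**
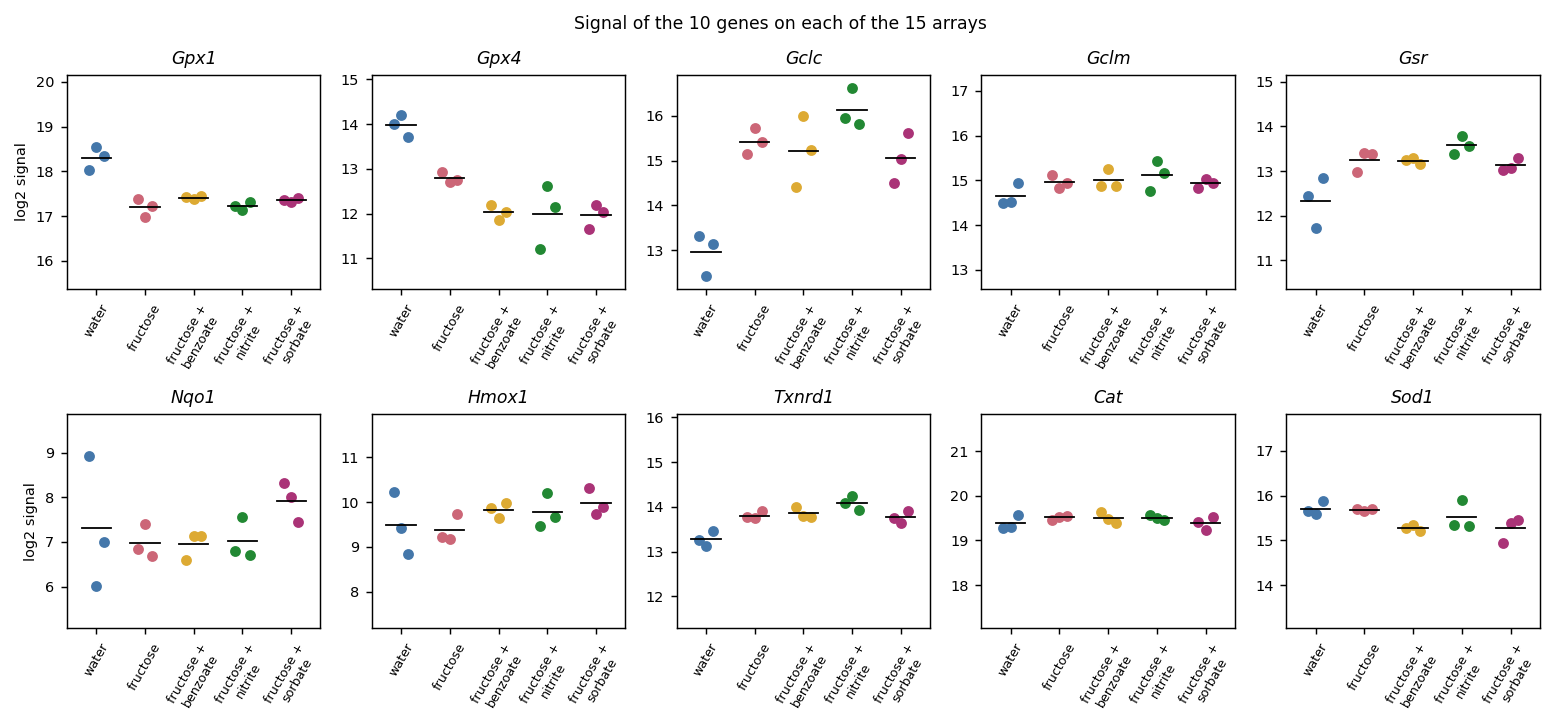
Log2 signal (vertical axis) of each of the 10 genes on the 15 arrays, with 1 point per array, a bar for the mean of 3 arrays and the 5 groups along the horizontal axis. All panels span the same log2 range. The water arrays of Gpx1 and Gpx4 lie above all 12 fructose arrays, those of Gclc, Gsr and Txnrd1 lie below them, and those of the other 5 genes overlap with them.

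Promoter windows from RefSeq (mouse GRCm38.p6, from 250 bases before to 50 bases after a gene's start, 300 in all) were found for 7 of the 10 genes. Gclc, Gsr and Hmox1 had none. The windows of the 7 genes were 12 in all. These windows were searched on both strands for the antioxidant response element core TGACNNNGC, to which NRF2 binds, and for the GC box GGGCGG, to which SP1 binds. The element core was present in 12.4% and the GC box in 35.7% of 32851 windows of that length. Of the 12 windows here, 3 held the core and 9 held a GC box. The core was found in 1 window each of Gclm, Txnrd1 and Sod1 and not in those of Gpx1, Gpx4, Nqo1 and Cat. The other Txnrd1 windows held no core. At least 1 window of each of the 7 genes held a GC box. A match is a run of letters and not a site shown to be bound. Shown here are the pair of genes that fell, Gpx1 at chr9:108338830-108339129 and Gpx4 at chr10:80053315-80053614, and 2 NRF2 target genes with a core match, Gclm at chr3:122245307-122245606 and Txnrd1 at chr10:82858956-82859255, all on the plus strand. Gpx4 and Txnrd1 have other windows that are not shown. Capitals mark the element core and the GC box on either strand, which do not overlap in these windows.
Gpx1 promoter: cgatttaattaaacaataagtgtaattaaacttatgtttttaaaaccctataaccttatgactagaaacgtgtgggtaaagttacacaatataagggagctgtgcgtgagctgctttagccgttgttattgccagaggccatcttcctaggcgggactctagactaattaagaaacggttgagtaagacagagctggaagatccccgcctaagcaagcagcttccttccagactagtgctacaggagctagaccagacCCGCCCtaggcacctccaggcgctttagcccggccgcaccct
Gpx4 promoter: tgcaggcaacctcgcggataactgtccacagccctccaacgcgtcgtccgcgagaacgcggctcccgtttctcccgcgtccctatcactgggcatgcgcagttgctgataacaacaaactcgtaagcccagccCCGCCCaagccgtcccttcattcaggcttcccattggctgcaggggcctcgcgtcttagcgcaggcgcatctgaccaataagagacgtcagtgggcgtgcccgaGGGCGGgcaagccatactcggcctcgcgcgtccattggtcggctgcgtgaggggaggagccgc
Gclm promoter: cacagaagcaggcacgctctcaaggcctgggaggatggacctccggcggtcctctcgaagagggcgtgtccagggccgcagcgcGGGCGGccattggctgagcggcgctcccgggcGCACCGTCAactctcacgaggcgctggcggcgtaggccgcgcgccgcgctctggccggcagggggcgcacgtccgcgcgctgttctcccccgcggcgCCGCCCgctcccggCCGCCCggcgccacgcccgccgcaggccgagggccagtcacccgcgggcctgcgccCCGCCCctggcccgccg
Txnrd1 promoter: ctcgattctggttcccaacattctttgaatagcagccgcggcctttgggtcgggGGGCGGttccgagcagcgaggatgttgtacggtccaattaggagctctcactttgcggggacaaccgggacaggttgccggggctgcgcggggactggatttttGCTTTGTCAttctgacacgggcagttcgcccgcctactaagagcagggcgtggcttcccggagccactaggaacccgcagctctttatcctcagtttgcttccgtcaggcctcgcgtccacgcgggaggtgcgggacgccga
In the printed windows, Gclm and Txnrd1 hold 1 element core each, Gclm holds 4 GC boxes and Gpx4 holds 2, whereas Gpx1 and Txnrd1 hold 1.

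With fructose, the levels of Gpx1 and Gpx4 were lower than on water and those of Gclc and Gsr were higher, as deposited. None of these calls was kept with the hybridization controls as a covariate. These controls did not overlap between water and the fructose groups, so that fit could hardly tell them apart, and standard errors grew. A call lost there does not show that the difference is absent. Of the 10 genes, 2 rose (Gclc, 5.53-fold, and Gsr, 1.88-fold) and 2 fell (Gpx1, 2.15-fold, and Gpx4, 2.28-fold) in fructose against water, where 24.4% of all probe sets passed the same threshold, 11.8% higher and 12.7% lower. With benzoate, Gclc, Gsr and Txnrd1 rose and Gpx1 and Gpx4 fell (34.3% of all probe sets, 15.6% higher and 18.7% lower). The nitrite group gave those 3 rises and those 2 falls too (34.8% of all probe sets, 16% higher and 18.8% lower). With sorbate, Gclc and Gsr rose and Gpx1 and Gpx4 fell (36.5% of all probe sets, 16.7% higher and 19.8% lower). The arrays of 5, 6, 5 and 6 of the 10 genes did not overlap with water in these comparisons, where 36.6%, 40.5%, 43.4% and 42.4% of all probe sets did not. When the hybridization controls were a covariate, 0 of the 10 genes passed against water in any of the 4 groups (limma, with 1, 2, 3 and 2 genes at an unadjusted p under 0.05). In fructose against water Gclc then went from 2.47 to 1.24, Gpx4 from -1.19 to -0.69 and Gsr from 0.91 to 0.19, and Gpx1 was -1.10 in both fits (adjusted p = 0.652, 0.784, 0.944 and 0.473 with the covariate). The 4 comparisons share the 3 water arrays and are therefore not independent of each other. The median difference over the 10 genes was 0.05, 0.22, 0.21 and 0.38 in the same order, beside -0.12, -0.19, -0.15 and -0.20 over all probe sets.

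**Figure D2:**
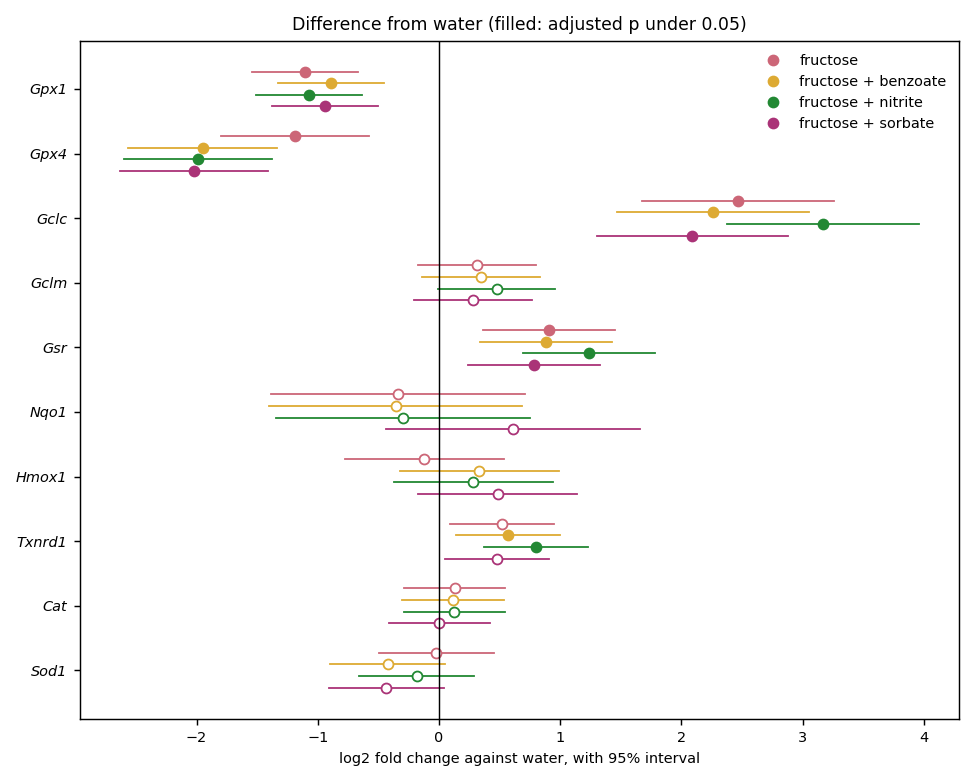
Log2 fold change of each gene against water (horizontal axis) for the 4 fructose groups, with the 95% interval of the limma fit, and filled points where the adjusted p is under 0.05. Gpx1 and Gpx4 lie left of 0 in all 4 groups and Gclc and Gsr right of it, and Txnrd1 is filled only with benzoate and nitrite.

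Gpx1, the cytosolic peroxidase that removes hydrogen peroxide with glutathione, read 18.02, 18.54 and 18.34 on the water arrays. It read 17.39, 16.99 and 17.22 on fructose, 17.42, 17.38 and 17.44 with benzoate, 17.23, 17.14 and 17.32 with nitrite, and 17.36, 17.32 and 17.41 with sorbate. All 12 fructose arrays therefore lay below the lowest water array, and the 4 fructose groups lay close together. The difference from water was -1.10 (SE 0.21, limma adjusted p = 0.00104) with fructose, -0.89 (adjusted p = 0.00324) with benzoate, -1.07 (adjusted p = 0.000716) with nitrite and -0.94 (adjusted p = 0.00196) with sorbate.

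Gpx4, the peroxidase that reduces lipid hydroperoxides in membranes and thereby restrains ferroptosis, read 14.01, 14.20 and 13.72 on water. It read 12.92, 12.70 and 12.75 on fructose, 12.19, 11.85 and 12.04 with benzoate, 11.22, 12.61 and 12.15 with nitrite, and 11.65, 12.19 and 12.04 with sorbate. Water was highest without overlap, fructose alone came next, and the 3 preservative groups lay lowest and overlapped with each other. The difference from water was -1.19 (SE 0.29, limma adjusted p = 0.00661) with fructose and -1.95, -1.99 and -2.02 with benzoate, nitrite and sorbate (adjusted p = 8.48e-05, 6.08e-05 and 5.6e-05), a fall of 3.86-, 3.96- and 4.05-fold. Without water arrays 1 and 2, the difference of fructose from water was -0.93 and no longer passed (adjusted p = 0.203).

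Gclc, the catalytic subunit of glutamate-cysteine ligase, showed the largest rise among the 10 genes in each group. It read 13.32, 12.42 and 13.14 on water, 15.15, 15.73 and 15.41 on fructose, 14.42, 16.01 and 15.23 with benzoate, 15.94, 16.64 and 15.81 with nitrite, and 14.50, 15.05 and 15.61 with sorbate. No fructose array reached down to the water arrays, and the nitrite arrays all lay above the arrays of fructose alone. The rise over water was 2.47 (SE 0.38, limma adjusted p = 0.000222) with fructose, 2.26 (adjusted p = 0.000213) with benzoate, 3.17 (adjusted p = 1.08e-05) with nitrite and 2.09 (adjusted p = 0.000383) with sorbate, or 5.53-, 4.79-, 9.02- and 4.26-fold.

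Gclm, the modifier subunit that lowers the feedback inhibition of the same enzyme, did not pass in any comparison with all arrays. It read 14.50, 14.51 and 14.95 on water and 14.77 to 15.44 on the 12 fructose arrays, and each fructose group overlapped with water. Its difference from water was 0.32 with fructose (95% interval -0.17 to 0.80) and 0.28 to 0.48 in the preservative groups. Without water array 3, nitrite against water gave 0.62 and passed (adjusted p = 0.0494). After its values were seen, the difference Gclc minus Gclm was taken within each array. It was -2.09 to -1.18 on water and rose to 0.02 to 0.90 on fructose, -0.46 to 0.76 with benzoate, 0.64 to 1.20 with nitrite and -0.34 to 0.67 with sorbate. The shift against water was 2.15, 1.91, 2.70 and 1.81, a description with no test, since the difference was formed from values already seen.

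Gsr, which returns oxidized glutathione to its reduced form, read 12.44, 11.73 and 12.85 on water, 12.97, 13.40 and 13.37 on fructose, 13.24, 13.29 and 13.15 with benzoate, 13.39, 13.79 and 13.55 with nitrite and 13.02, 13.06 and 13.29 with sorbate. All 12 fructose arrays lay above the highest water array, by a small margin over water array 3. The rise was 0.91 (SE 0.26, limma adjusted p = 0.0166) with fructose, 0.88 (adjusted p = 0.0139) with benzoate, 1.24 (adjusted p = 0.00134) with nitrite and 0.78 (adjusted p = 0.0253) with sorbate. Without water array 2, the lowest of the group, the rise was 0.60, 0.58 and 0.48 with fructose, benzoate and sorbate and no longer passed (adjusted p = 0.0937, 0.0847 and 0.146). It was also lost in fructose against water without fructose array 2 or 3 (adjusted p = 0.0674 and 0.0662) and in sorbate against water without sorbate array 3 (adjusted p = 0.089), and it passed with nitrite whichever single array was left out.

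Txnrd1, which keeps thioredoxin reduced, read 13.25, 13.13 and 13.46 on water, 13.76, 13.74 and 13.90 on fructose, 13.99, 13.80 and 13.77 with benzoate, 14.09, 14.23 and 13.92 with nitrite and 13.75, 13.64 and 13.90 with sorbate. All 12 fructose arrays lay above the water arrays. The difference was 0.57 with benzoate (limma adjusted p = 0.0369) and 0.80 with nitrite (adjusted p = 0.00526), which passed, and 0.52 with fructose (adjusted p = 0.0691) and 0.48 with sorbate (adjusted p = 0.072), which did not. The 4 values differ by less than the interval of any of them, which for fructose ran from 0.09 to 0.95. The call with benzoate was lost when water array 1, water array 2 or any 1 of the 3 benzoate arrays was left out (adjusted p = 0.0667 to 0.108), whereas fructose and sorbate passed without water array 3 (0.61, adjusted p = 0.0385, and 0.57, adjusted p = 0.0415).

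Nqo1, a quinone reductase and a standard readout of NRF2 activity, did not pass against water in any group. It was the dimmest of the 10 genes against the negative controls, and on the lowest array it exceeded the median of those probes by 0.23. It read 8.92, 6.01 and 7.01 on water, 6.83, 7.41 and 6.68 on fructose, 6.59, 7.14 and 7.14 with benzoate, 6.80, 7.56 and 6.70 with nitrite and 8.32, 8.01 and 7.44 with sorbate. The 3 water arrays spanned the whole range, with water array 1 the highest and water array 2 the lowest of all 15. The difference from water was -0.34 with fructose (95% interval -1.38 to 0.71), -0.36 with benzoate, -0.29 with nitrite and 0.61 with sorbate (limma adjusted p = 0.662, 0.606, 0.677 and 0.353). Without water array 1, sorbate against water gave 1.42 (adjusted p = 0.00802), and the directions of the other 3 turned positive without passing, with 0.47, 0.45 and 0.51.

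Hmox1, which opens the heme ring and is also high in macrophages that clear red cells, read 10.22, 9.42 and 8.84 on water, 9.21, 9.18 and 9.73 on fructose, 9.87, 9.64 and 9.97 with benzoate, 9.46, 10.21 and 9.66 with nitrite and 10.31, 9.73 and 9.89 with sorbate. The water arrays overlapped with every group. The difference from water was -0.12, 0.33, 0.28 and 0.48 in the same order of groups (limma adjusted p = 0.809, 0.431, 0.507 and 0.234). Without water array 1, the highest of its group, sorbate against water gave 0.85 (adjusted p = 0.0381). Beside 12.7% of all probe sets that fell and 11.8% that rose with fructose, 5 of 11 Kupffer cell and macrophage markers fell and 0 rose. Among these markers were Clec4f (-1.49) and Cd5l (-1.23). Their mean signal was 9.45 to 9.69 on water, 8.39 to 8.81 on fructose, 9.19 to 9.62 with benzoate, 8.41 to 9.33 with nitrite and 9.43 to 9.63 with sorbate. All 11 of these markers exceeded the median of the negative controls on every water and every sorbate array, 10 did so on every fructose array and on every benzoate array, and 9 on every nitrite array. The part of these cells in the level of Hmox1 was not tested.

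Cat and Sod1, which remove hydrogen peroxide and superoxide, did not pass against water in any group. Cat read 19.28, 19.30 and 19.57 on water, and its range over all 15 arrays was 19.23 to 19.64. This is near the top of the scale, whose highest tested signal on an array was 19.48 to 19.87, where differences can be compressed. The difference from water was 0.13, 0.12, 0.13 and 0.00. Sod1 read 15.65, 15.58 and 15.88 on water and 15.69, 15.65 and 15.70 on fructose, which overlapped. It read 15.28, 15.35 and 15.22 with benzoate, 15.34, 15.91 and 15.31 with nitrite and 14.95, 15.40 and 15.47 with sorbate. The benzoate and sorbate arrays lay below both water and fructose, with a difference from water of -0.42 and -0.43 that did not pass (limma adjusted p = 0.157 and 0.14).

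**Figure D3:**
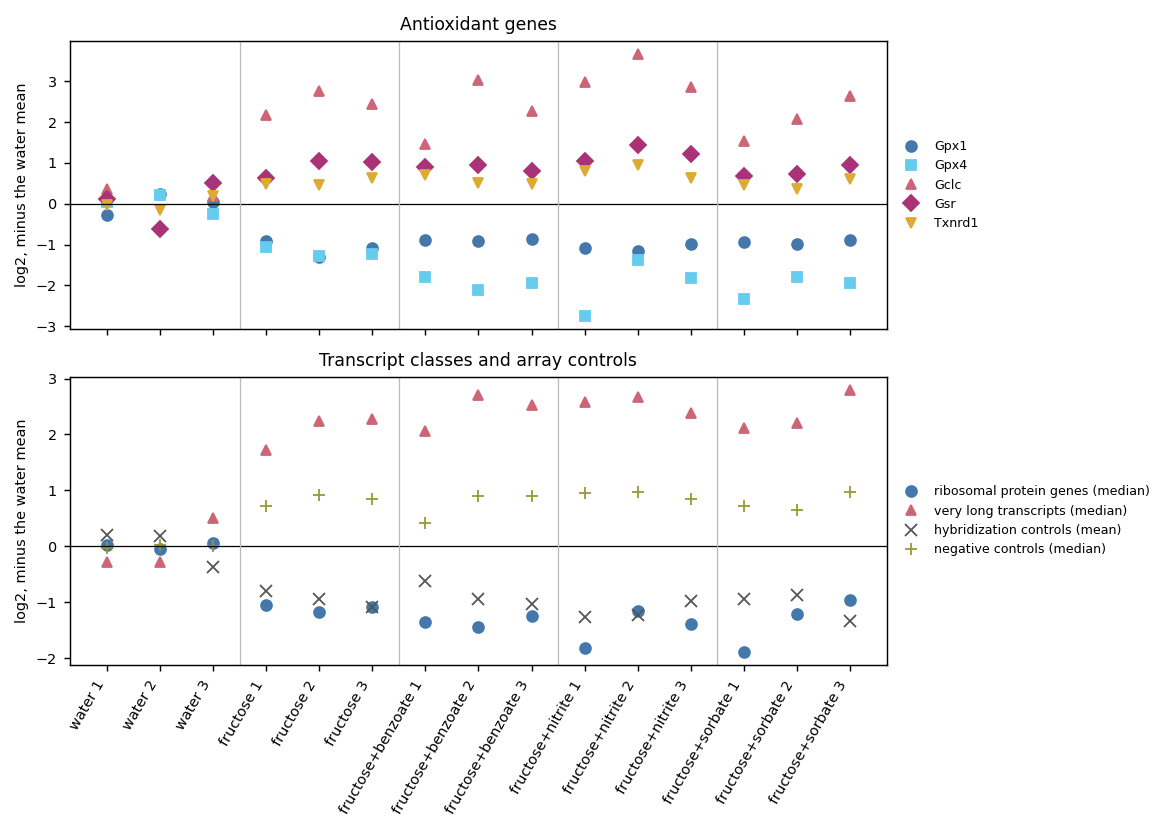
Log2 signal minus the mean of the 3 water arrays, with the 15 arrays along the horizontal axis. The upper panel shows Gpx1, Gpx4, Gclc, Gsr and Txnrd1, and the lower panel the median of ribosomal protein genes and of very long transcripts, the mean of the hybridization controls and the median of the negative controls. On all 12 fructose arrays, Gpx1, Gpx4 and the ribosomal protein genes lie below 0, and Gclc, Gsr, Txnrd1 and the very long transcripts above it. The genes shown are those whose water arrays did not overlap with the fructose arrays. Their side of 0 was therefore fixed by that choice, and a shared side is no test of a link.

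The genes whose profiles over the 15 arrays lay closest to each member were found by the root mean square difference of gene-centred log2 values, over 1 probe set per symbol. The closest to Gpx4 were Rpl5 (0.17), Sf3b6 (0.20) and Rps15a (0.21), of which Rpl5 and Rps15a encode ribosomal proteins. The closest to Gpx1 were Bsg (0.16), Sorcs3 (0.17) and Gpr149 (0.17). Gclc had no profile nearer than 4932438A13Rik (0.31), followed by Sec24d (0.35) and Syvn1 (0.37), and for Gsr the closest were Anxa5, Rapgef6 and Masp2 (0.16, 0.16 and 0.17). Among the 10 genes, Gclm and Txnrd1 lay closest to each other (0.22), and Gpx4 and Gclc lay farthest apart (1.86).

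The addition of a preservative to fructose changed none of the 10 genes by the same test. With benzoate against fructose alone 0.0135% of all probe sets passed, with nitrite 0%, and with sorbate 0.635%. At an unadjusted p under 0.05, 1 gene of the 10 was reached in each of these comparisons (9.37%, 5.2% and 13.4% of all probe sets), and in each it was Gpx4. All 9 preservative arrays of Gpx4, at 11.22 to 12.61, lay below the 3 arrays of fructose alone, at 12.70 to 12.92. The difference was -0.76 (95% interval -1.38 to -0.15, limma adjusted p = 0.452) with benzoate, -0.80 (-1.41 to -0.19, adjusted p = 0.903) with nitrite and -0.83 (-1.44 to -0.22, adjusted p = 0.208) with sorbate. The 3 comparisons share the fructose arrays. The difference Gpx4 minus Gpx1 within an array, chosen after these values were seen, shifted by -0.98, -0.83 and -0.99 against fructose, a description with no test. The mean of the 36 ribosomal protein genes was also lower than with fructose, by -0.30, -0.39 and -0.24 (exact permutation test, two-sided p = 0.1, 0.1 and 0.5, where 0.1 is the smallest that 3 arrays against 3 can give), and its part in the values of Gpx4 was not tested. Sinusoidal endothelial cell markers were higher than with fructose in all 11 genes with each preservative, with medians of 0.52, 0.56 and 0.77, though 0 of 11 passed (limma), and their part was not tested either.

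The other genes that did not overlap with fructose alone were Sod1 with benzoate (-0.40), Gclc (0.70) and Txnrd1 (0.28) with nitrite, and Nqo1 (0.95), Hmox1 (0.61) and Sod1 (-0.41) with sorbate. None of these passed (lowest limma adjusted p 0.419, for Hmox1 with sorbate). That makes 2, 3 and 4 of the 10 genes without overlap, Gpx4 included, where 17.3%, 16.2% and 23.1% of all probe sets had none. The Nqo1 arrays of sorbate, at 7.44 to 8.32, lay just above the highest fructose array, at 7.41. The intervals leave room for changes of some size. For Gpx1 they reached from -0.22 to 0.65 with benzoate, from -0.41 to 0.47 with nitrite and from -0.28 to 0.60 with sorbate, and for Gsr from -0.67 at the lowest to 0.88 at the highest. Kupffer cell and macrophage markers were higher on average than with fructose alone in the benzoate, nitrite and sorbate groups, by 0.81, 0.26 and 0.92 (exact permutation test, two-sided p = 0.1, 0.4 and 0.1). Of the 11 markers 0, 0 and 3 rose and 0 fell (limma), where 0.0135%, 0% and 0.635% of all probe sets passed. Hmox1 was higher by 0.46, 0.41 and 0.61 in the same order, and the part of the markers in this was not tested.

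**Figure D4:**
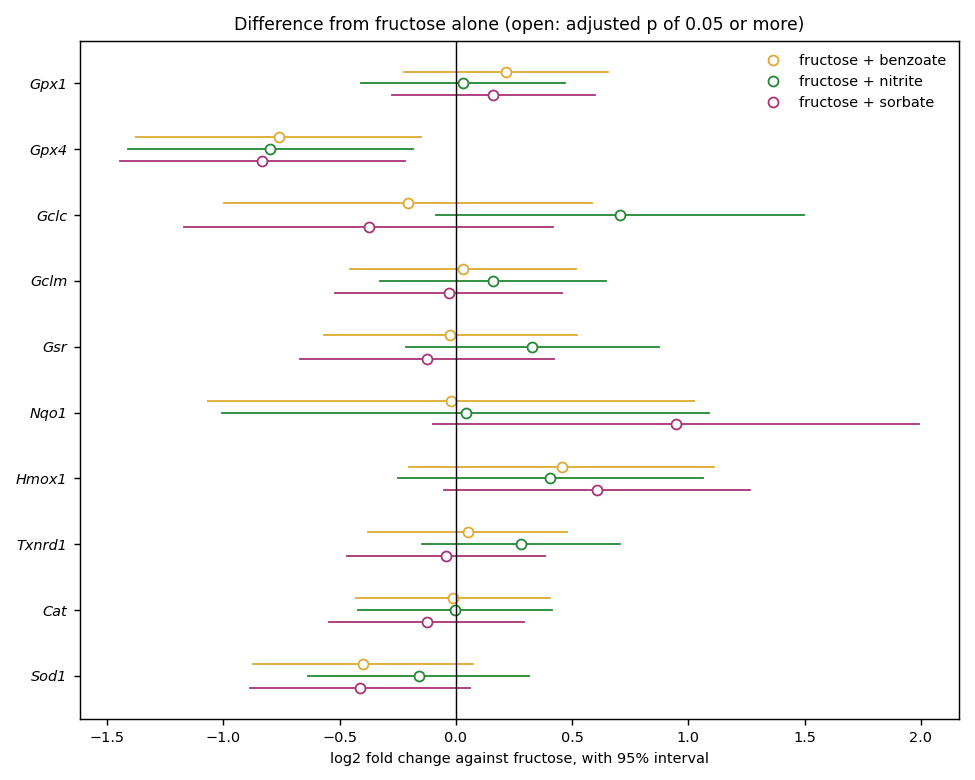
Log2 fold change of each gene against fructose alone (horizontal axis) for the 3 preservative groups, with the 95% interval of the limma fit. All points are open because none has an adjusted p under 0.05, and the intervals of Gpx4 are the ones that leave out 0 in all 3 groups.

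Between the preservative groups, which were given at different doses, none of the 10 genes passed, where 0% of all probe sets did for nitrite and for sorbate against benzoate and 0.369% for sorbate against nitrite. At an unadjusted p under 0.05 there was 1 gene for nitrite against benzoate (5.3% of all probe sets), 0 for sorbate against benzoate (3.45%) and 1 for sorbate against nitrite (9.25%). Both were Gclc, which averaged 16.13 ± 0.44 (SD, n = 3) with nitrite, 15.22 ± 0.79 with benzoate and 15.05 ± 0.56 with sorbate. Nitrite exceeded benzoate by 0.91 (limma adjusted p = 0.869) with overlapping arrays, and sorbate lay below nitrite by 1.08 on the log2 scale without overlap (difference -1.08, adjusted p = 0.324).

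The other genes of these pathways were counted in 9 lists, with 157 of 169 genes measured. The lists were chosen with earlier results of these data known, so their shares are a description and no test of an excess. In fructose against water 28 rose and 26 fell, or 34.4% of them beside 24.4% of all probe sets. With benzoate, nitrite and sorbate 45.9%, 45.2% and 50.3% passed, beside 34.3%, 34.8% and 36.5% of all probe sets. For every list named here, the shares of all probe sets to set beside its counts with fructose are 11.8% higher and 12.7% lower. Of 10 genes of NRF2 and its regulators, 5 rose, 0 fell and 5 did not pass with fructose, with a median of 0.76. With benzoate, nitrite and sorbate 6 rose in each group, and 1, 0 and 1 fell. Nfe2l2, which encodes NRF2, rose by 1.35 with fructose and by 1.99, 2.09 and 2.20 with benzoate, nitrite and sorbate. It was dim on water, at 5.42, 5.51 and 6.56, near the negative controls there, and the negative controls were themselves higher in the fructose groups. Nfe2l1, a related factor, rose by 1.09, 1.80, 1.45 and 1.30 in the same order.

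Of 27 other NRF2 target genes, 8 rose and 0 fell with fructose, where 11.8% of all probe sets rose and 12.7% fell. Me1, malic enzyme, which makes NADPH and is also a target of the lipogenic programme, rose by 4.94, and its arrays went from 9.97, 11.80 and 12.34 on water to 15.53, 16.88 and 16.53. Abcc3, an exporter of bile acid and glucuronide conjugates, rose by 4.14. The other 19 did not pass with fructose, among them Srxn1 (-0.71) and Slc7a11 (-0.58), which were named after their values were seen. Over all 27, the median difference with fructose was 0.29, and 15 were positive. With benzoate, nitrite and sorbate, 8, 10 and 8 of the 27 rose and 3, 2 and 5 fell.

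Of 23 other selenoproteins and factors of their synthesis, 10 fell, 4 rose and 9 did not pass with fructose, with a median of -0.52, where 12.7% of all probe sets fell and 11.8% rose. With benzoate, nitrite and sorbate 10, 11 and 12 fell and 4, 4 and 6 rose. Selenof, a selenoprotein of the endoplasmic reticulum, read 17.14, 17.24 and 16.53 on water and 15.16, 14.55 and 14.42 on fructose, a fall of 2.26 on the log2 scale (difference -2.26). Dio1, the deiodinase that activates thyroid hormone, had a difference of -2.26 with fructose. Those that rose were Selenoi (2.52), Secisbp2 (1.13), Eefsec (0.99) and Txnrd2 (0.96). Selenoi acts in phospholipid synthesis, Secisbp2 and Eefsec bring selenocysteine to the ribosome, and Txnrd2 is the mitochondrial thioredoxin reductase.

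Other glutathione synthesis, turnover and peroxidase genes had 3 of 21 higher and 5 lower with fructose. Oplah, which recycles 5-oxoproline to glutamate, rose by 1.43 from a level near the negative controls, and Slc25a39, which carries glutathione into mitochondria, rose by 0.89. Chac2, which degrades glutathione, had a difference of -1.74 and Gpx3, a secreted peroxidase, of -1.28. The second enzyme of synthesis, Gss, had -0.65 and did not pass. Of 18 other thioredoxin, peroxiredoxin and methionine sulfoxide reductase genes, Txnrd2 rose and 3 fell, among them Txnl1 (-1.04) and Txn2 (-0.92). Of 17 other superoxide and peroxide removal genes 3 rose and 3 fell. Cyb5r3 rose by 1.33 and Pon3 by 0.92, and both also rose against water with benzoate, nitrite and sorbate. The metallothionein genes Mt1 and Mt2 had differences of -2.90 and -1.69, with water arrays of Mt1 at 13.29, 9.22 and 9.55 against 7.83, 7.96 and 7.57 on fructose. Neither metallothionein gene passed against water with benzoate or sorbate. Mt2 read 6.21, 6.04 and 6.59 on fructose, level with the negative controls there (-0.12, -0.49 and 0.14 from their median), so its difference has no exact size. Of 17 enzymes that produce superoxide or hydrogen peroxide 4 rose and 1 fell, led by Aox1, aldehyde oxidase (3.56), and Xdh, xanthine dehydrogenase (1.76), and the 1 that fell was Cyba (-0.80), a subunit of the phagocyte oxidase. Among 16 genes of heme synthesis and breakdown, Cpox rose (1.56), and Blvra (-1.11), Hpx (-0.92) and Hp (-0.91) fell.

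**Figure D5:**
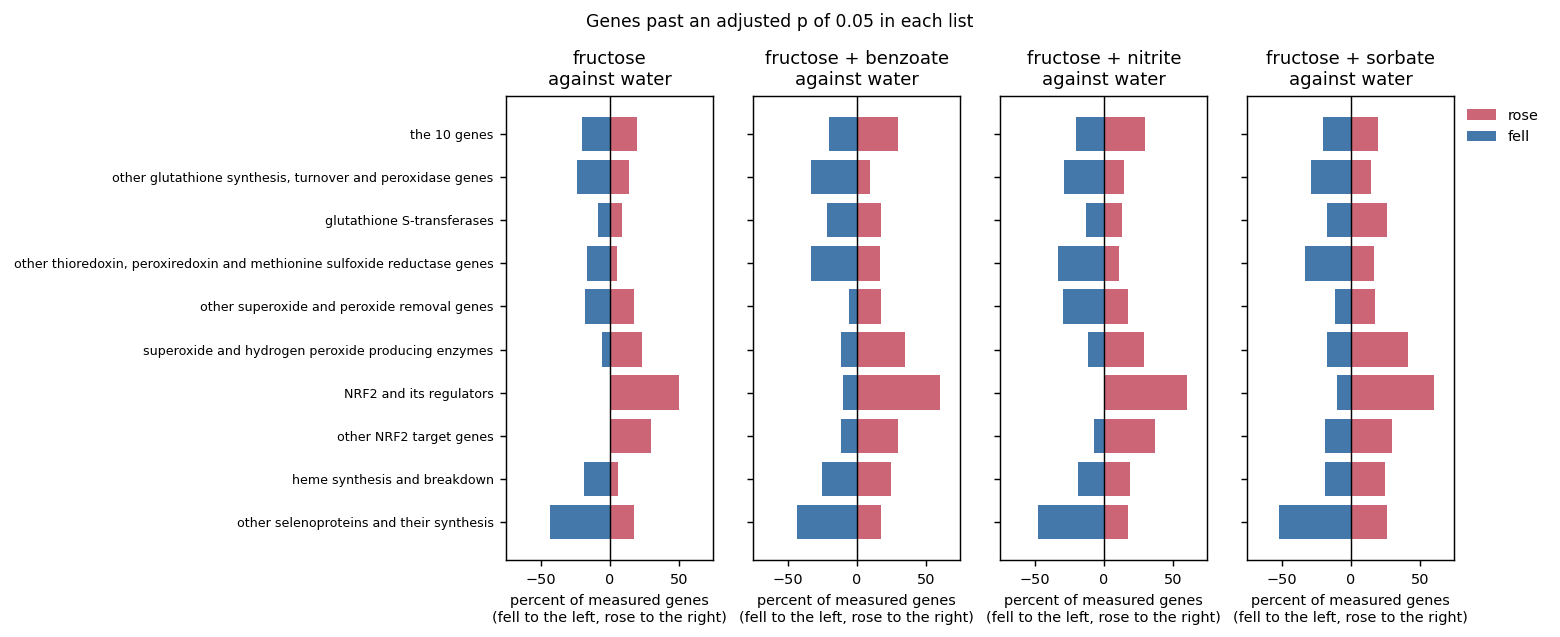
Percent of the measured genes of each list that rose (right) or fell (left) against water at an adjusted p under 0.05 (limma), in 4 panels, 1 per fructose group, with the 10 genes on top. NRF2 and its regulators reach 50% or more to the right in every panel, and selenoprotein genes reach farthest to the left.

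Glutathione S-transferases, which couple glutathione to electrophiles, had 2 of 23 higher and 2 lower with fructose. Gstm1 rose by 1.22, and Gstz1 (-1.35) and Gstm5 (-0.92) fell. Mgst2 passed with 0.61, but it lay near the negative controls, 0.49 to 0.67 above their median on water and 0.16 to 0.50 on fructose, so relative to that median it did not go up. In sorbate against fructose, 8 of the 157 pathway genes passed (5.1%, beside 0.635% of all probe sets). Since the lists were chosen with earlier results known, this share is no test of an excess. Gstp1 and Gstp2, near-identical copies whose probes may read each other, had a difference of -4.75 and -4.23 (limma adjusted p = 0.014 and 0.0167). Gstp1 read 10.09, 11.24 and 10.94 with sorbate and 16.02, 10.81 and 11.04 with benzoate, against 14.87 to 16.14 on the water, fructose and nitrite arrays. The 5 low arrays are the 5 with a low Y-linked mean, including the split within the benzoate group. Hao2, a peroxisomal oxidase, showed the reverse, with 8.35, 7.61 and 9.07 with sorbate, 3.66, 7.60 and 8.05 with benzoate and 3.49 to 4.63 on the 9 arrays of the other groups, which lay below the negative controls. The others were Mt1 (4.73), Gstt3 (2.20), Nox4 (-2.92), Hao1 (-1.75) and Ephx1 (-1.10). Within the benzoate group, array 1 also stood apart from arrays 2 and 3 for Nox4 (10.56 against 7.34 and 7.76), Mt1 (8.16 against 10.78 and 11.87) and Hao1 (13.78 against 12.23 and 12.69). On sorbate array 1, Nox4 lay below the median of the negative controls, by -0.36. Of these 8 genes, 6 also passed in sorbate against nitrite, namely Gstp1, Gstp2, Mt1, Nox4, Hao2 and Ephx1. None of the 157 passed with benzoate or nitrite against fructose, where 0.0135% and 0% of all probe sets did.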

How the data were processed

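Liver RNA of 15 mice was measured on Clariom S arrays. The deposited values are log2 signals, which the authors background-corrected, normalized and summarised per probe set before deposition (by SST-RMA according to the methods, whereas the submitters' processing notes name RMA, version 1.4 of Affymetrix Expression Console, and Transcriptome Analysis Console). SST-RMA rescales signals before averaging, which can set the size of folds. The genome build behind the probe annotation is not given in the sources used here.

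Groups came from the sample labels. Using R 4.3.3, 6640 control probes of 28846 entries were left out, and the means of the 5 groups were fitted together with limma 3.58.1 to the deposited values of 22206 probe sets, with no filter on low values. Adjustment was by Benjamini-Hochberg, over all probe sets. Single values per array were compared with an exact permutation test. Arrays have no read depth, and 3 per group limit the precision. The fit was tested on simulated data.

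The 10 genes and all lists were chosen with earlier results of these data known. Named besides the 10 genes are up to 4 genes per list, the 2 largest rises and 2 largest falls past the threshold in fructose against water, and list genes that passed between fructose groups, and the 3 genes with the nearest profile to each member that passed. Others (Srxn1, Slc7a11, Gss, Eefsec, Hp, Clec4f and Cd5l) were named after their values were seen. Of 169 pathway genes, 12 are unnamed in the annotation used here. Alternatives covered normalization, filters, variance models, covariates, the replicate block and arrays left out.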

Additional observations from a re-analysis of the deposited data

How the results depend on the processing

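The fits were repeated under other normalizations, filters and variance models, with covariates, with the replicate block, on only the 2 groups compared, and with arrays left out. Of 1230 repeats of a gene's result, 1104 kept direction and side of the threshold, 47 no longer passed, 11 newly passed and 68 changed sign. Of the 68, 67 were differences that passed neither before nor after. A correction for protein length was not run for want of lengths, and no gene of the 10 has a further probe set.

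When the hybridization controls entered as a covariate, the number of the 10 genes past the threshold went to 0 in fructose, benzoate, nitrite and sorbate against water (limma, with 1, 2, 3 and 2 genes at an unadjusted p under 0.05). The controls did not overlap between water and the other groups, and standard errors grew. In fructose against water, Gpx1 was at -1.10 with an SE of 0.38 (adjusted p = 0.473), Gpx4 at -0.69, Gclc at 1.24 and Gsr at 0.19. Gsr with sorbate, which had passed, changed sign to -0.0101. Without water arrays 1 and 2, where the lone water array is assumed to vary like the other groups, 2 genes passed with fructose, 3 with benzoate and 3 with nitrite. With the Y-linked covariate, 3 passed with benzoate and 1, Gpx4, with sorbate, where Gpx1 (-0.96, adjusted p = 0.125) and Gclc (1.03, adjusted p = 0.284) did not. A fit of only the 2 groups gave 3 with benzoate. The cause of these changes was not tested.

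Leaving out 1 array at a time gave 3 to 5 genes in fructose against water, 3 to 5 with benzoate, 5 to 6 with nitrite and 3 to 6 with sorbate, and 0 in every comparison among fructose groups. The 3 with benzoate came without water array 2. Gpx1, Gpx4 and Gclc passed against water in all 4 groups whichever single array was left out.

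The other changes of sign were in differences that did not pass. Against water, the hybridization covariate gave 0.0268 for Nqo1, 0.44 for Hmox1 and -0.14 for Cat with fructose, -0.13 for Cat with benzoate, 0.15 for Nqo1 and -0.20 for Cat with nitrite, and -0.29 for Cat with sorbate. Without water arrays 1 and 2, Hmox1 was at 0.53 and Cat at -0.0602 with fructose, Cat at -0.0735 with benzoate, Nqo1 at 0.0114 and Cat at -0.0629 with nitrite, and Gclm at -0.0145 and Cat at -0.19 with sorbate. Centring on the median put Sod1 at 0.0585 with fructose. In benzoate against fructose, centring gave 0.0363 for Gsr, 0.0382 for Nqo1 and 0.0461 for Cat, quantile normalization -0.0115 for Txnrd1 and 0.0387 for Cat, and array weights 0.0775 for Nqo1. The hybridization covariate gave 0.0415 for Gsr and 0.0106 for Cat there, and the Y-linked covariate -0.0428 for Gclm, 0.0328 for Gsr and 0.11 for Cat. In nitrite against fructose, Cat was at 0.0139 after centring and 0.0041 with the Y-linked covariate, and Gpx1 at -0.0326 after quantile normalization. In sorbate against fructose, centring gave 0.0191 for Gclm and 0.0093 for Txnrd1, and the Y-linked covariate 0.14 for Txnrd1 and 0.052 for Cat.

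With 1 array left out at a time, the differences from water that changed sign ran from -0.99 to 0.47 for Nqo1, -0.45 to 0.24 for Hmox1 and -0.0838 to 0.0672 for Sod1 with fructose. They ran from -1.01 to 0.45 for Nqo1 with benzoate, from -0.95 to 0.51 for Nqo1 and -0.0431 to 0.65 for Hmox1 with nitrite, and from -0.043 to 1.42 for Nqo1 and -0.0642 to 0.0971 for Cat with sorbate. Against fructose, the ranges with benzoate were -0.60 to 0.19 for Gclc, -0.0923 to 0.11 for Gclm, -0.16 to 0.0521 for Gsr, -0.17 to 0.20 for Nqo1, -0.0177 to 0.0995 for Txnrd1 and -0.082 to 0.0445 for Cat. With nitrite they were -0.0757 to 0.13 for Gpx1, -0.23 to 0.26 for Nqo1 and -0.033 to 0.0256 for Cat, and with sorbate -0.10 to 0.049 for Gclm and -0.11 to 0.0213 for Txnrd1.

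Replicate numbers did not pair the arrays, since same-numbered arrays correlated at -0.08 to 0.22 in their deviations from the group means, and in no comparison did every array match its own number best. With the replicate block, 4, 5, 5 and 4 genes passed against water, as without it, and 0 in the other comparisons. The median shift of all probe sets against water was -0.12 to -0.20 as deposited and -0.05 to -0.06 after quantile normalization, under which no gene that passed changed direction. With 3 arrays a group, small differences could not be resolved, and Nqo1 lay close to the negative controls.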

Other observations

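Arrays with a high and a low Y-linked mean occur together only in the benzoate group, with a high mean on array 1 and a low mean on arrays 2 and 3. Gpx4 read 12.19 on array 1 and 11.85 and 12.04 on arrays 2 and 3. Gpx1 read 17.42 against 17.38 and 17.44, and Txnrd1 13.99 against 13.80 and 13.77. Gclc read 14.42 on array 1 against 16.01 and 15.23. With 1 array against 2, no test was made.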
